A study of Homo sapiens with 6 samples.

Results

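The genes described here are 10 core genes of the Notch pathway, picked by name: the ligands DLL1, DLL3, DLL4, JAG1 and JAG2, the receptors NOTCH1, NOTCH2 and NOTCH3, and the target genes HES1 and HEY1. All 10 were found, by the symbols that GENCODE 29 pairs with the Ensembl IDs, among the 58735 genes of the deposited expression table. The study sequenced mRNA of 2 prostate cancer lines in 6 libraries, to compare a control siRNA with knockdown of PLXND1, the gene of the semaphorin receptor plexin D1. C4-2B MDVR is a line selected from C4-2B for resistance to the drug enzalutamide, and H660 is a line from a neuroendocrine prostate cancer. Each line is represented by a control siRNA library and by 1 library for each of 2 siRNAs against PLXND1, siRNA 1 and siRNA 2. No other allele, agent or time point is given in the labels. No label states whether separate cultures were used, so p-values measure only the spread between these libraries, which may be technical. Each type of cancer is represented by 1 line, so a difference between the lines cannot be told apart from a difference between the types.

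Notch receptors lie in the cell membrane and bind ligands of the Delta-like (DLL) and Jagged (JAG) families on neighbouring cells. Binding lets an ADAM protease and then gamma-secretase cut the receptor, and the freed intracellular domain enters the nucleus. There it joins the DNA-binding protein RBPJ and Mastermind co-activators and switches on genes such as HES1 and HEY1, which encode repressors of transcription. DLL3 is known as a surface antigen of neuroendocrine tumours.

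PLXND1 itself, at chr3:129555175-129606818 (GRCh38), had a level of 7.40 FPKM in the C4-2B MDVR control, and siRNA 1 and siRNA 2 left 21.2% and 41.8% of it. From 9.13 FPKM in the H660 control, 83.5% and 82.6% were left. FPKM, fragments scaled by exon length and library size, is a level per length of gene, so levels can be compared between genes. The libraries held 17655802 to 24105369 fragments. Fragments of mitochondrial genes made up 3.38% of the C4-2B MDVR control, 7.44% and 6.83% of the knockdown libraries of that line, and 8.58% to 9.64% of the H660 libraries. Of 8 luminal prostate markers, all 8 reached 1 FPKM in each C4-2B MDVR library, with a summed level of 725 to 1520 FPKM. In H660 their sum was 2.61 to 3.69 FPKM. Of 8 neuroendocrine markers 7 reached 1 FPKM in each H660 library, against 1 of 8 in C4-2B MDVR. Of 5 endothelial markers only CDH5 reached 1 FPKM, in H660 alone, and PECAM1 was at 0.035 FPKM or less in every library. COL1A1 was the 1 fibroblast marker of 5 to do so, in both lines, and CD14 the 1 leukocyte marker of 5, in H660.

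The shares of the Notch ligands and receptors differed between the 2 lines (plot of levels by library), while DLL1, DLL3, JAG1, JAG2 and the 3 receptors were above 1 FPKM in all 6 libraries. In H660 the summed level of the 5 ligands was 154, 150 and 164 FPKM in the control, siRNA 1 and siRNA 2 libraries, of which DLL1 alone was 61.4% to 63.4%. In C4-2B MDVR the sum was 55.9, 53.1 and 58.8 FPKM, and JAG2 was 42.8% to 69.3% of it while DLL1 was 4.98% to 8.44%. For the receptors the order of the lines was the opposite, with 43.6, 52.5 and 49.1 FPKM in C4-2B MDVR against 14.0, 11.5 and 12.3 FPKM in H660. NOTCH3 was 69.6% to 73.1% of the receptor sum in C4-2B MDVR and 37.7% to 41.1% in H660.

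**Figure D1:**
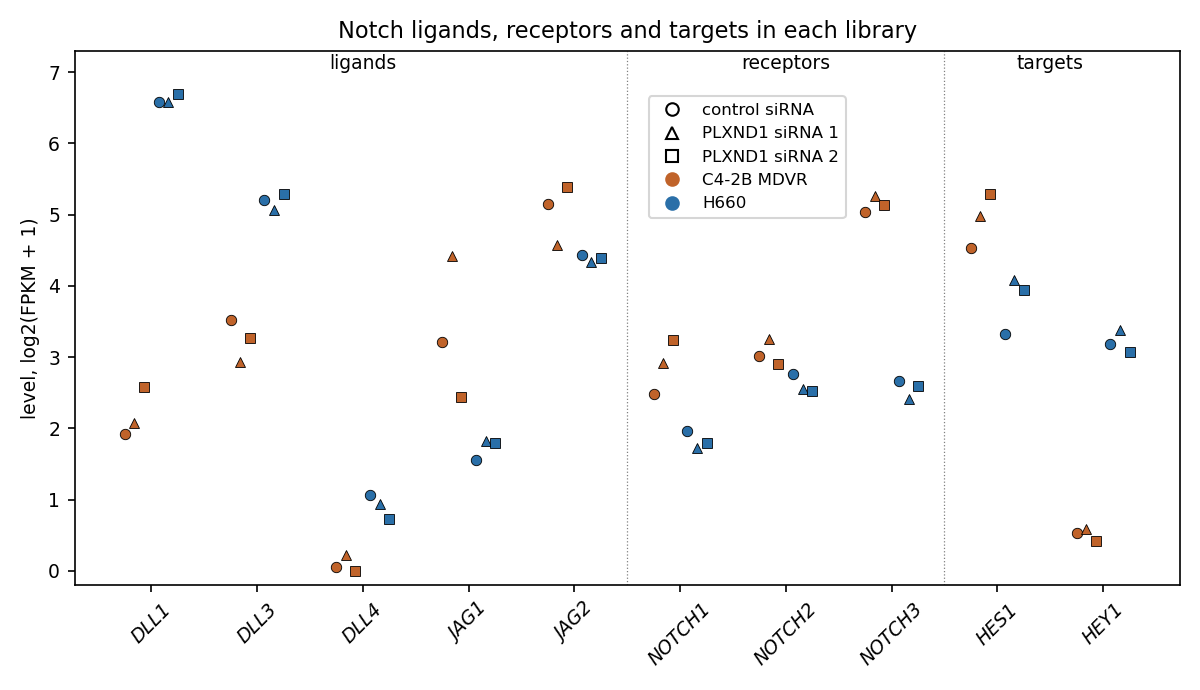
Level of each of the 10 Notch genes in each of the 6 libraries, as log2(FPKM + 1) on the vertical axis, with orange for C4-2B MDVR, blue for H660 and the marker shape for the siRNA. The blue and orange points do not overlap for any gene, and the distance is widest for DLL1 (3.65 against 97.5 FPKM on average).

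The difference between the lines was tested with limma on log2(FPKM + 1), for the 15638 genes with a mean of at least 1 FPKM in at least 1 line, and a gene was called at an adjusted p under 0.05 and at least a 2-fold difference. Of the 10 Notch genes 9 passed that filter, and DLL4 did not. HEY1 passed it only by its level in H660, the line in which it was higher. The test called 7 of the 9, against 38% of all genes tested. DLL1, DLL3 and HEY1 were higher in H660, a direction in which 20.1% of all genes were called. JAG1, NOTCH1, NOTCH3 and HES1 were lower in H660, against 17.9% of all genes. JAG2 and NOTCH2 passed the threshold on p but not the one on fold; at any size, the adjusted p was under 0.05 for 9 of 9, against 69.8% of all genes. Over 14 alternatives the adjusted p of JAG2 reached 0.142 and that of NOTCH2 0.242. For all 10 genes the libraries of the lines did not overlap, as for 74.5% of all genes tested (37.1% with H660 above and 37.4% with H660 below). Over all genes 3143 were called higher in H660 and 2803 lower. With short and mitochondrial RNAs left out and the libraries rescaled to the same summed FPKM, these numbers were 3810 and 2105, and the median difference of all genes moved from −0.0035 to 0.23 (log2). RNA from bulk cultures does not tell fewer cells with a transcript apart from less transcript per cell.

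Among the ligands, DLL1 (ENSG00000198719, chr6:170282206-170306565), a Delta-like ligand that activates Notch in trans, was the highest of the 10 genes in H660. Its levels were 94.8, 95.1 and 103 FPKM in H660, in the order control, siRNA 1, siRNA 2, and 2.78, 3.20 and 4.96 FPKM in C4-2B MDVR. The mean was 26.7-fold higher in H660, and the difference on the log2(FPKM + 1) scale was 4.43 ± 0.17 (SE, n = 3 libraries a line; limma adjusted p = 7.06e-06). That scale understates the difference of genes with low levels.

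DLL3 (ENSG00000090932, chr19:39498895-39508481), an atypical ligand that inhibits Notch within the cell, was at 36.0, 32.4 and 38.1 FPKM in H660. In C4-2B MDVR it was at 10.4, 6.66 and 8.65 FPKM, so that all 3 libraries lay below the lowest of H660. The mean was 4.14-fold higher in H660, with a log2 difference of 1.95 ± 0.15 (SE; limma adjusted p = 9.76e-05).

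DLL4 (ENSG00000128917, chr15:40929333-40939073), the ligand best known from blood vessel sprouting, was the lowest of the 10 genes in both lines. It gave 128, 103 and 80 fragments in H660, which is 1.09, 0.921 and 0.652 FPKM. In C4-2B MDVR it gave 4, 16 and 0 fragments, where 0 fragments allows up to 3 fragments, or 0.0388 FPKM. It was below the filter in both lines and was not tested. Beside it, CDH5, a cadherin of endothelial cells, was at 9.93, 7.60 and 7.42 FPKM in H660 and at 0 in C4-2B MDVR, while PECAM1, another endothelial marker, was at or near 0 in both; their part in the DLL4 level was not tested.

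JAG1 (ENSG00000101384, chr20:10637684-10673999), a Jagged ligand, varied most of the 9 tested genes between the siRNA libraries of C4-2B MDVR. In C4-2B MDVR it was at 8.24 FPKM in the control, 20.3 with siRNA 1 and 4.41 with siRNA 2. In H660 it was at 1.93, 2.53 and 2.46 FPKM, below every C4-2B MDVR library. The log2 difference was −1.63 ± 0.47 (SE; limma adjusted p = 0.0216). Its size hardly moved without either control (−1.62 each) or without the H660 siRNA 1 (−1.64) or siRNA 2 library (−1.63). The call was still lost in these fits, with a limma adjusted p of 0.0731 and 0.0740 without the H660 siRNA 1 and siRNA 2 libraries. The call held without either siRNA library of C4-2B MDVR. Over all libraries left out in turn the size ran from −2.20 to −1.07. Without a filter on low values the limma adjusted p was 0.0630.

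JAG2 (ENSG00000184916, chr14:105140981-105168824), the other Jagged ligand, was at 34.4, 22.7 and 40.8 FPKM in C4-2B MDVR and at 20.6, 19.1 and 20.0 FPKM in H660. The lines did not overlap, but the gap between the siRNA 1 library of C4-2B MDVR and the H660 control was small. The log2 difference of −0.65 ± 0.21 (SE; limma adjusted p = 0.0345) was under 2-fold and was not called. A transcript on the same strand, AL512356.1, shares 469 exon bases with JAG2, or 7.33% of its exon bases, and was at 0 FPKM in C4-2B MDVR and 0.384 FPKM on average in H660.

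Among the receptors, NOTCH3 (ENSG00000074181, chr19:15159038-15200981) separated the lines most. It was at 31.8, 37.3 and 34.1 FPKM in C4-2B MDVR and at 5.33, 4.33 and 5.06 FPKM in H660. The mean was 7.02-fold higher in C4-2B MDVR, with a log2 difference of −2.59 ± 0.12 (SE; limma adjusted p = 1.54e-05).

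NOTCH1 (ENSG00000148400, chr9:136494433-136545786) was at 4.58, 6.59 and 8.42 FPKM in C4-2B MDVR and at 2.90, 2.30 and 2.48 FPKM in H660. All H660 libraries were below the lowest of C4-2B MDVR, with a log2 difference of −1.05 ± 0.20 (SE; limma adjusted p = 0.00368). The adjusted p stayed under the threshold in each alternative, but the difference fell below 2-fold when the libraries were rescaled (−0.82) or scaled by total fragments (−0.91), and without the C4-2B MDVR siRNA 2 library (−0.89) or the H660 siRNA 1 (−0.95) or siRNA 2 library (−0.998).

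NOTCH2 (ENSG00000134250, chr1:119911553-120069626) was the most even of the receptors, at 7.13, 8.56 and 6.50 FPKM in C4-2B MDVR and 5.77, 4.86 and 4.76 FPKM in H660. The log2 difference of −0.45 ± 0.14 (SE; limma adjusted p = 0.0258) was under 2-fold. NOTCH2 has near-identical partial copies, the NOTCH2NL genes, between which reads could be split. Of these, NOTCH2NLA was at 0.040 to 0.334 FPKM in the 6 libraries.

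The 2 target genes differed between the lines in opposite directions. HES1 (ENSG00000114315, chr3:194136145-194138732), the best known direct target of Notch, was at 22.0, 30.6 and 38.2 FPKM in C4-2B MDVR and at 9.03, 16.0 and 14.3 FPKM in H660. The log2 difference was −1.15 ± 0.12 (SE; limma adjusted p = 0.000366). It fell below 2-fold, with the same direction, under quantile normalization (−0.97), with rescaled libraries (−0.87) and with libraries scaled by total fragments (−0.98). HEY1 (ENSG00000164683), a related repressor, was at 8.09, 9.41 and 7.40 FPKM in H660. In C4-2B MDVR it was at 0.448, 0.507 and 0.343 FPKM, from 30, 33 and 18 fragments. The mean of HEY1 was 19.2-fold higher in H660, with a log2 difference of 2.69 ± 0.13 (SE; limma adjusted p = 1.70e-05).

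By mean level in C4-2B MDVR, NOTCH3, JAG2 and HES1 stood highest (34.4, 32.6 and 30.3 FPKM) with ranges that overlapped. JAG1, DLL3, NOTCH2, NOTCH1 and DLL1 followed, each overlapping with its neighbour, and HEY1 and DLL4 were apart at the bottom. In H660 the order was DLL1 (97.5 FPKM), DLL3 (35.5), JAG2 (19.9), HES1 (13.1) and HEY1 (8.30), then NOTCH2, NOTCH3, NOTCH1, JAG1 and DLL4. In that line the ranges overlapped only between the neighbours HES1 and HEY1, NOTCH2 and NOTCH3, and NOTCH1 and JAG1.

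Knockdown of PLXND1 was compared with the control in both lines at once, in each line, and between the lines. In each of these 4 comparisons limma called 0 of the 9 Notch genes, and 0% of all genes tested. PLXND1, the target of the siRNAs, was itself not called. Its effect was −1.37 in C4-2B MDVR, −0.24 in H660 and −0.81 ± 0.30 over both lines (SE; limma adjusted p = 0.985). These tests missed the lowered target, so the lack of a call does not show that a gene did not respond. At an unadjusted p under 0.05, 1 of the 9 passed over both lines (4.18% of all genes), 2 in C4-2B MDVR (5.89%), 1 in H660 (4.14%) and 1 in the difference between the lines (4.48%). Each line has 1 control, so both siRNA libraries of a line share it. The spread in the tests per line comes from the siRNA pairs alone, pooled over both lines. It thus includes any difference between the 2 siRNAs, and a gene has the same SE in each line. For JAG1 that SE was 0.83, while its siRNA libraries differed by 1.98 in C4-2B MDVR and by 0.028 in H660 (log2).

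HES1 was above the control with both siRNAs in both lines, as the levels above show. DLL1 was too, though only at 1.00-fold with siRNA 1 in H660. So were CIR1, MIB1, ADAM10 and ITCH among the other pathway genes tested. Of all genes 10.7% were above the control in all 4 knockdown libraries. In C4-2B MDVR the level of HES1 was 1.39-fold (95% interval 1.28 to 1.51) and 1.73-fold (1.59 to 1.89) that of the control with siRNA 1 and siRNA 2. In H660 the ratios were 1.77 (1.58 to 1.99) and 1.59 (1.41 to 1.78). These intervals are exact binomial, from 461 to 1278 fragments a library, and cover counting error only. Ranked by the smallest of the 4 changes, which was 0.46 on the log2(FPKM + 1) scale, HES1 was number 20 of 15638 genes. The effect over both lines was 0.65 ± 0.13 (SE, 2 controls against 4 knockdown libraries; unadjusted p = 0.00258), but it missed the threshold after adjustment over all genes (limma adjusted p = 0.985). It was 0.61 ± 0.20 in C4-2B MDVR (limma adjusted p = 0.822) and 0.69 ± 0.20 in H660 (limma adjusted p = 1). Over 14 alternatives the effect over both lines was 0.58 to 0.72 and the adjusted p 0.639 to 1. In C4-2B MDVR the mitochondrial share moved with the knockdown as given above, and its part in the HES1 level was not tested. PLXND1 was not lowered alike: siRNA 1 and siRNA 2 left 21.2% and 41.8% in C4-2B MDVR, but 83.5% and 82.6% in H660. The HES1 ratio was lowest, 1.39, in the library with the least PLXND1 left. Whether the HES1 level depends on that of PLXND1 was not tested.

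The promoter of HES1 is shown because this gene was above the control in all 4 knockdown libraries, beside those of HES4 and NRARP, other genes of the pathway with known Notch input that did not share this pattern. The sequences are the 250 bases before the start of transcription, from RefSeq on GRCh38.p14, 5′ to 3′ on the strand of the gene: chr3:194135898-194136147 (plus), chr1:1000098-1000347 (minus) and chr9:137302272-137302521 (minus). Capitals mark matches, on either strand, to GTGGGAA, a form of the RBPJ motif, and to its shorter core TGGGAA, which lies within it.
HES1: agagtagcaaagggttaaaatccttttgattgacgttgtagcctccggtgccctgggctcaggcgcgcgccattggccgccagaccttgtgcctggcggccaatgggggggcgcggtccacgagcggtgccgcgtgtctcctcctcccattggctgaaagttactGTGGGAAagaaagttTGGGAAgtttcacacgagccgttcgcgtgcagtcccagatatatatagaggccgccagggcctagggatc
HES4: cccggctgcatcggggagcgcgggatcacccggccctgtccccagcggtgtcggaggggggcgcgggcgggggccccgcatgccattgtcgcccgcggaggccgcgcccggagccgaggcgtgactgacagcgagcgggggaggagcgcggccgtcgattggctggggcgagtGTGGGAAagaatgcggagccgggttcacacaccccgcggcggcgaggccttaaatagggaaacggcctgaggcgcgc
NRARP: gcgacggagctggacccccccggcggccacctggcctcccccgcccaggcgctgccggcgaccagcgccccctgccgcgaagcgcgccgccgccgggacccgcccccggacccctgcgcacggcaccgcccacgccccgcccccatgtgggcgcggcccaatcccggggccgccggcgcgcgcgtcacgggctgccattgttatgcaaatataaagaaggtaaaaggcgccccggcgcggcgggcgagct

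In the HES1 promoter GTGGGAA began 85 bases before the start and TGGGAA again at 70, and in the HES4 promoter GTGGGAA began at 77. No match lay in the NRARP window. The table held promoters of 7 of the 10 Notch genes, and not of DLL1, DLL3 and HEY1. Of the 7, HES1 alone had a match to GTGGGAA, and HES1 alone to TGGGAA. Of 9 other genes searched (the other HES and HEY genes and NRARP), 4 had GTGGGAA: HES4, HES5, HEY2 and HEYL. Of all 35116 promoters of this length, 5.43% held GTGGGAA and 20.8% held TGGGAA. A match describes the letters only.

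HEY1, the other target, was not above the control in all 4 libraries. Its ratios to the control were 1.13 (0.670 to 1.92) and 0.766 (0.402 to 1.42) in C4-2B MDVR and 1.16 (1.05 to 1.30) and 0.915 (0.818 to 1.02) in H660. The siRNAs lay on opposite sides of the control in both lines, and the effect over both lines was 0.0081 ± 0.14 (SE; limma adjusted p = 0.999). NRARP, which encodes a small ankyrin protein that limits Notch signalling and is itself a Notch target, was below the control in all 4 knockdown libraries, as 10.1% of all genes were. So were DLK2, MAML1, MAML3, EP300, SPEN, TLE2 and NUMB among the other pathway genes tested. NRARP was at 23.2, 11.6 and 20.3 FPKM in C4-2B MDVR and at 10.2, 7.43 and 9.36 FPKM in H660. In both lines the 95% counting interval of its level with siRNA 2 overlapped that of the control, narrowly in C4-2B MDVR. With siRNA 1 it lay below that of the control in both lines. Intervals of the NRARP ratios were not computed. The effect on NRARP over both lines was −0.41 ± 0.23 (SE; limma adjusted p = 0.985), not past the threshold. The size of this effect varied: it was −0.23 without the C4-2B MDVR siRNA 1 library. Without the only control of a line, the estimate came from the other line alone. It was then −0.26, from H660, without the C4-2B MDVR control, and −0.56, from C4-2B MDVR, without the H660 control. The range over 14 alternatives was −0.56 to −0.23, and no alternative passed the threshold.

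**Figure D2:**
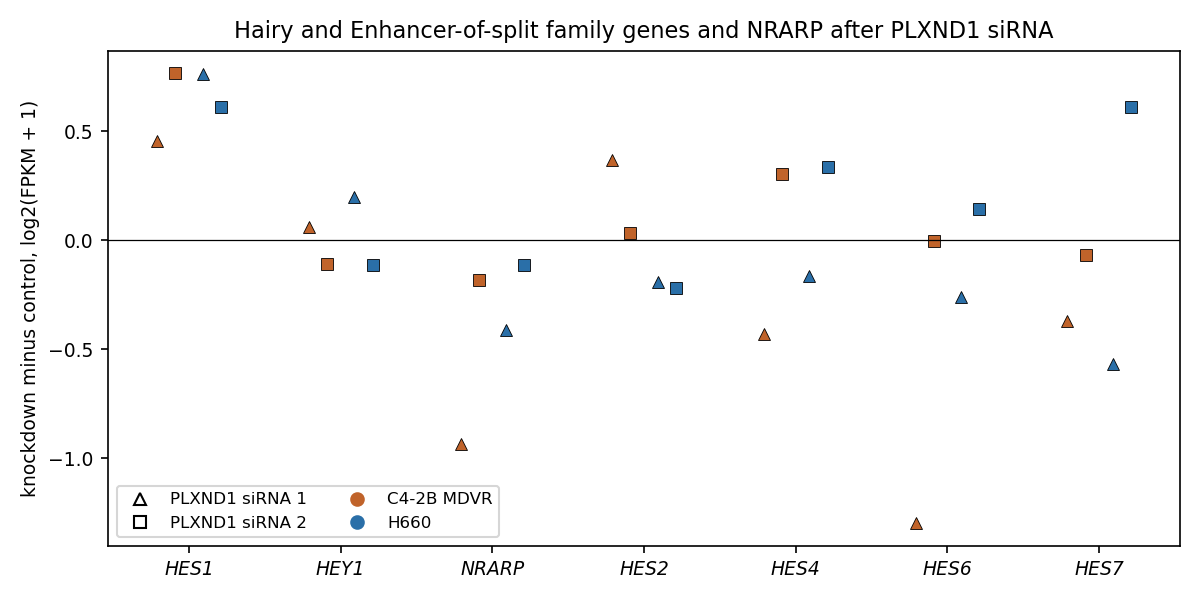
Difference between each knockdown library and the control of its line, in log2(FPKM + 1), for HES1, HEY1, NRARP and the other HES genes that passed the filter on level. All 4 points of HES1 lie above 0 (the lowest at 0.46) and all 4 of NRARP lie below it, while those of the other 5 genes fall on both sides.

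The Jagged ligands gave opposite changes with the 2 siRNAs in C4-2B MDVR (plot of ratios to the control). JAG1 was 2.47-fold (95% interval 2.33 to 2.62) the control with siRNA 1 and 0.535-fold (0.488 to 0.586) with siRNA 2. The libraries with siRNA 1 and siRNA 2 thus differed 4.61-fold (4.25 to 5.02), and by size of that difference on the log2(FPKM + 1) scale, 1.98, JAG1 was number 63 of 15638 genes. The median size over all genes was 0.23. JAG2 went the other way in each library, at 0.660-fold (0.630 to 0.692) with siRNA 1 and 1.19-fold (1.14 to 1.24) with siRNA 2. Their sum, 42.6, 43.1 and 45.2 FPKM in the order control, siRNA 1, siRNA 2, varied far less than either gene. A link between the levels of JAG1 and JAG2 was not tested. In H660 JAG1 was at 1.31-fold (1.15 to 1.48) and 1.27-fold (1.12 to 1.44) the control, and JAG2 at 0.927-fold (0.882 to 0.975) and 0.970-fold (0.924 to 1.02). With 1 library for each siRNA and line there was no test between the siRNAs.

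The Delta-like ligands followed no common direction. DLL1 was 1.15-fold (0.940 to 1.41) and 1.78-fold (1.47 to 2.17) the control in C4-2B MDVR and 1.00-fold (0.972 to 1.04) and 1.08-fold (1.05 to 1.12) in H660. DLL3 was 0.638-fold (0.557 to 0.731) and 0.830-fold (0.726 to 0.948) the control in C4-2B MDVR. In H660 it was on both sides, at 0.901-fold (0.848 to 0.956) and 1.06-fold (1.00 to 1.12). DLL4 in H660 was 0.848-fold (0.648 to 1.11) and 0.601-fold (0.448 to 0.800) the control. For DLL1 and DLL3 no effect of knockdown passed the threshold in limma (adjusted p of 0.901 or above in each line).

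NOTCH1 and NOTCH3 were above the control with both siRNAs in C4-2B MDVR and below it with both in H660, a pattern that 11.9% of all genes had. None of the 10 had the reverse pattern, against 7.85% of all genes. NOTCH1 was 1.44-fold (1.32 to 1.56) and 1.84-fold (1.69 to 1.99) the control in C4-2B MDVR, and 0.793-fold (0.710 to 0.886) and 0.854-fold (0.768 to 0.949) in H660. The difference of its effect between the lines was −0.80 ± 0.27 (SE; unadjusted p = 0.0390, limma adjusted p = 0.985). NOTCH3 was 1.17-fold (1.13 to 1.21) and 1.07-fold (1.03 to 1.11) the control in C4-2B MDVR, and 0.813-fold (0.746 to 0.885) and 0.949-fold (0.876 to 1.03) in H660. With the libraries scaled by total fragments the siRNA 2 ratio of NOTCH3 in C4-2B MDVR was 0.975, on the other side of the control. NOTCH2 was 1.20-fold (1.14 to 1.27) and 0.913-fold (0.858 to 0.970) the control in C4-2B MDVR and 0.842-fold (0.792 to 0.894) and 0.825-fold (0.777 to 0.875) in H660.

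**Figure D3:**
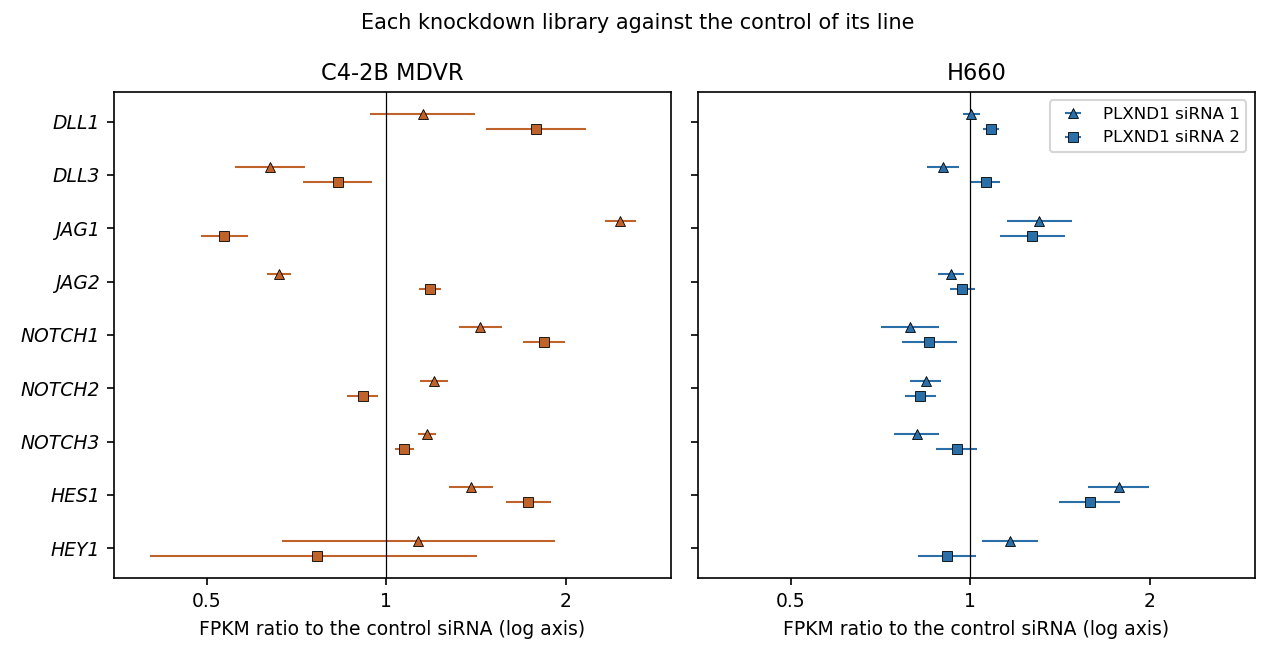
Ratio of each knockdown library to the control siRNA of its line, on a log axis, for the 9 Notch genes that passed the filter, with exact binomial 95% intervals from fragment numbers (counting error only). HES1 lies above 1 in all 4 libraries (1.39 to 1.77), and the siRNA 1 and siRNA 2 points of JAG1 in C4-2B MDVR lie at 2.47 and 0.535.

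Counted over the 10 genes, in C4-2B MDVR 4 were above the control with both siRNAs (DLL1, NOTCH1, NOTCH3 and HES1; 32% of all genes tested were), 1 was below with both (DLL3; 25.8%) and 5 were split. In H660 3 were above with both (DLL1, JAG1 and HES1; 32.1%), 5 below with both (DLL4, JAG2 and the 3 receptors; 38.3%) and 2 split. The median effect of the 9 tested genes was 0.16 in C4-2B MDVR and −0.032 in H660 on the log2 scale, beside 0.016 and −0.012 for all genes.

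Of 57 other genes of the pathway 49 passed the filter on level. Between the lines limma called 14 of them higher in H660 and 3 lower, against 20.1% and 17.9% of all genes, and 32 were not called. The median difference was 0.11, beside −0.0035 for all genes (plot of differences between the lines). Of the 14, DLK2, MAML2, TLE4 and DTX1 passed the filter only by their level in H660, the line in which they were higher. For knockdown of PLXND1 limma called 0 of the 49 in each of the 4 comparisons. An unadjusted p under 0.05 was reached by 1 of them over both lines, 2 in C4-2B MDVR, 0 in H660 and 1 in the difference between the lines, against 4.18%, 5.89%, 4.14% and 4.48% of all genes.

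Of the genes that modify the receptors with sugars, LFNG, a fringe glycosyltransferase that shifts receptors from Jagged to Delta-like ligands, was higher in H660. It was at 71.6, 57.4 and 63.1 FPKM there and at 22.5, 12.9 and 22.6 FPKM in C4-2B MDVR, with a log2 difference of 1.71 ± 0.21 (SE; limma adjusted p = 0.000588). POFUT1, which adds the O-fucose that fringe extends, and RFNG, another fringe, had differences of −0.69 and −0.66, under 2-fold. POGLUT1 was not called either, and MFNG, the other fringe, was below the filter. Of the 4 ubiquitin ligases that let ligands be taken up, NEURL1B (2.13) and NEURL1 (1.52) were higher in H660, and MIB2 (0.91) and MIB1 were not called.

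Of the 9 genes of receptor cleavage, the proprotein convertase FURIN (1.38) and the protease ADAM17 (1.01) were higher in H660. The gamma-secretase subunits APH1B (−1.62) and PSEN2 (−1.17) were lower there, and the other 5 were not called. In the nuclear complex RBPJ was higher in H660, at 18.0, 21.7 and 18.0 FPKM against 7.68, 7.50 and 7.67 FPKM in C4-2B MDVR (1.23 ± 0.11, SE; limma adjusted p = 0.000199). So was the co-activator MAML2 (1.09), at 0.972 to 1.35 FPKM in H660 and 0 to 0.0489 FPKM in C4-2B MDVR. The acetyltransferases EP300 (−0.84) and KAT2B (−0.84) were not called.

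Of the 9 co-repressors TLE4 (1.70) and SPEN (1.34), which binds RBPJ, were higher in H660 and 7 were not called, TLE1 (0.48) among them. CIR1, another partner of RBPJ, had the largest effect of knockdown in C4-2B MDVR among the 9, 0.48 ± 0.14 (SE; limma adjusted p = 0.815). Of the genes of turnover and antagonism the Deltex genes DTX3 (1.53) and DTX1 (1.38) were higher in H660 and NUMBL, a Numb-like inhibitor of Notch, was lower (−1.30). NRARP (−0.91) was under 2-fold.

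Of the 8 other HES and HEY genes 4 passed the filter. HES6, which opposes HES1 and is known from neuronal differentiation, was at 128, 107 and 141 FPKM in H660 and at 39.4, 15.4 and 39.3 FPKM in C4-2B MDVR (2.07 ± 0.35, SE; limma adjusted p = 0.00245). HES7 (1.27) was also higher in H660. HES4 was high in both lines, at 94.9, 70.0 and 117 FPKM in C4-2B MDVR and 76.8, 68.5 and 97.3 FPKM in H660. Its difference of −0.20 ± 0.23 (SE; limma adjusted p = 0.470) was not called, and it changed sign to 0.091 with rescaled libraries and 0.19 under quantile normalization. HES2 was not called, and HES3, HES5, HEY2 and HEYL were below the filter. Of the ligand-like proteins and the remaining receptor, DLK2 (1.04) was higher in H660, and NOTCH4, DLK1 and DNER were below the filter.

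Some of these calls lay near the threshold. Under quantile normalization DLK2 (0.82), ADAM17 (0.89) and MAML2 (0.96) fell under 2-fold, as did PSEN2 with rescaled libraries (−0.93) and without the C4-2B MDVR siRNA 1 library (−0.94), and HES7 without the H660 siRNA 2 library (0.91). Without either control the adjusted p of FURIN was 0.0660 (C4-2B MDVR) or 0.0670 (H660), ADAM17 was at 0.96, and the adjusted p of HES7 without the H660 control was 0.0508. ADAM17 also fell under 2-fold without the siRNA 1 library of C4-2B MDVR (0.965) or the siRNA 2 library of H660 (0.994). In the other direction, MIB2 passed 2-fold in 5 alternatives, among them the rescaled libraries (1.18), KAT2B in 4, among them quantile normalization (−1.03), and NRARP without the C4-2B MDVR siRNA 1 library (−1.15) or the H660 siRNA 2 library (−1.02).

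**Figure D4:**
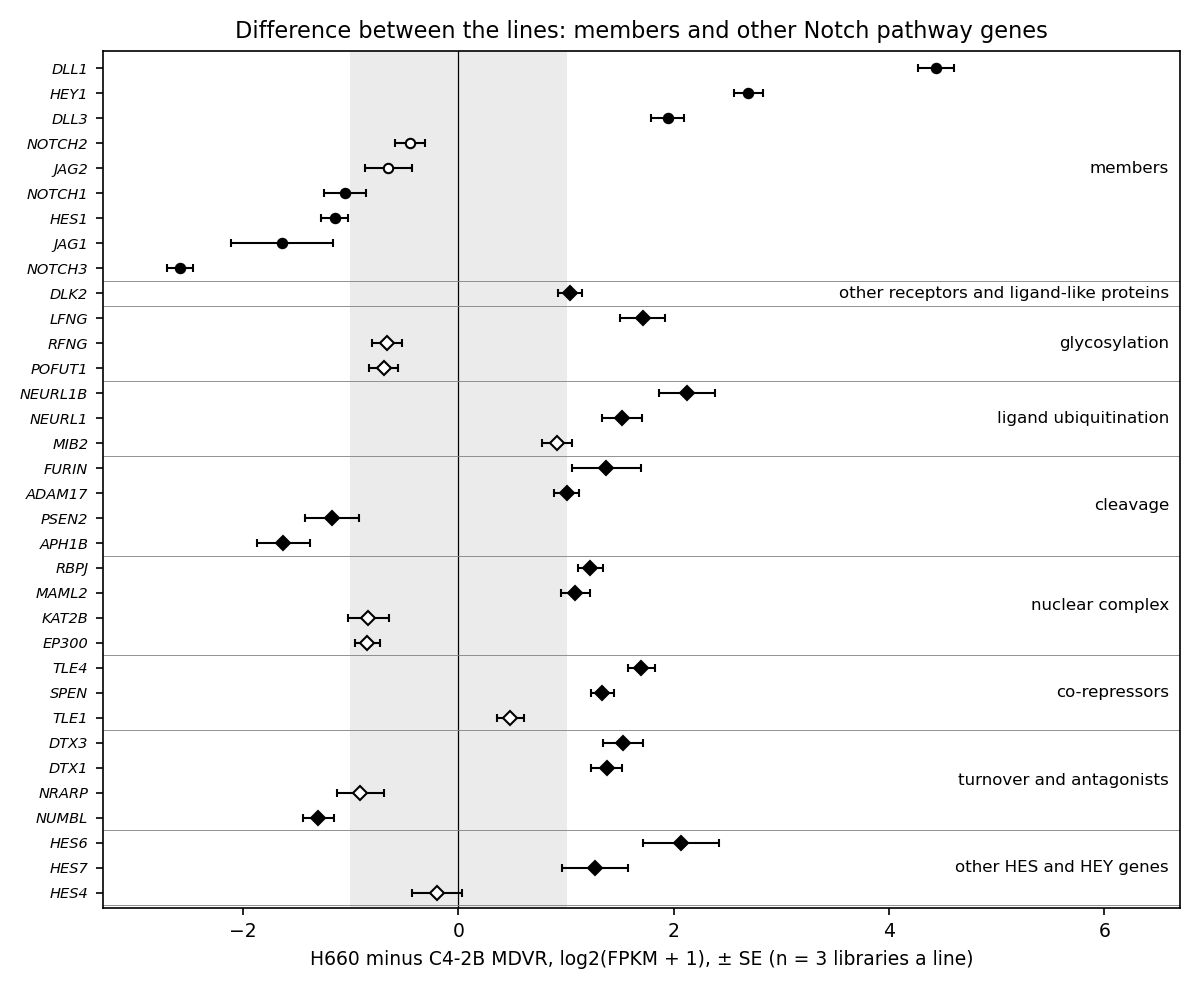
Difference between the lines (H660 minus C4-2B MDVR) in log2(FPKM + 1) with its standard error, for the 9 Notch genes tested (circles) and the other pathway genes named for their difference between the lines (diamonds), by role. Filled symbols were called (adjusted p under 0.05 and at least 2-fold) and the grey band marks differences under 2-fold on this scale; DLL1 at 4.43 lies farthest right and NOTCH3 at −2.59 farthest left.

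The genes nearest in pattern were sought among 12333 protein-coding genes, by the root mean square distance over the 6 libraries in log2(FPKM + 1), each gene centred on its mean. Nearest to DLL1 were CXCR4 (0.146), CD24 (0.154) and TNFRSF1B (0.159). Nearest to NOTCH3 were SLC39A14 (0.080), EPN3 (0.082) and ABCC1 (0.085). Nearest to HEY1 were DCAF12L2 (0.078), SMARCA1 (0.078) and DLX6 (0.080), of which DLX6 was at 0 in all 3 C4-2B MDVR libraries. For HES1 the distances were wider than for NOTCH3 and HEY1: INSIG2 was at 0.141, CNIH1 at 0.154 and CCDC186 at 0.159. INSIG2, a regulator of sterol synthesis, was at 4.79, 5.98 and 7.19 FPKM in C4-2B MDVR and at 1.80, 3.40 and 2.88 FPKM in H660. These distances describe the same 6 libraries and carry no test.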

How the data were processed

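The deposited table holds FPKM values, as the authors computed them, of 58735 Ensembl genes in 6 libraries of paired reads of 150 bases. Per the submitters' processing notes the tools were HISAT and Cufflinks and the build hg18, with no versions; the strand setting is not given in the sources used here. All 58735 IDs are in GENCODE 29, an annotation of GRCh38, which gave names, exon lengths and coordinates, so the stated build and the IDs do not match. FPKM times exon length gave whole fragments, within 0.05 fragments, for 100% of the 11213 to 13424 genes of at most 100 fragments checked per library. Fragment numbers were recovered on that basis. The scaling between libraries equals median-ratio size factors over the 17082 genes above 0 in all 6 libraries.

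Tests used limma 3.58.1 in R 4.3.3 on log2(FPKM + 1) with an intensity trend, two-sided, with Benjamini-Hochberg adjustment over 15638 genes (mean of at least 1 FPKM in at least 1 line) and a threshold of 0.05. The line difference and the effect over both lines were estimated in an additive model of treatment and line (3 residual degrees of freedom). The effects per line and their difference came from a fit of 4 groups (2 residual degrees of freedom), which assumes that a lone control varies as much as the siRNA pairs do. As an alternative, limma's voom on the recovered fragments called 4067 genes higher and 3409 lower in H660. Ratios of libraries have exact binomial 95% intervals, which cover counting error only. The code was tested on simulated data.

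The genes and lists were chosen with earlier results of these data known. Named genes are all 10 Notch genes, up to 4 of each role group of the pathway with the largest difference between the lines or effect of knockdown, and the 3 protein-coding genes nearest to the highest ligand, the highest receptor, HES1 and HEY1. ADAM10, ITCH, MAML1, MAML3, TLE2 and NUMB lie outside this rule. They are named because all 4 of their knockdown libraries lay on the same side of the control. The siRNA numbers name the siRNA only. Alternatives were another pseudocount (0.1), no filter, 3 other scalings (one, by total fragments, was chosen after seeing the data), voom, no trend, a replicate block and each library left out. Some marker genes are not reported here.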

Additional observations from a re-analysis of the deposited data

Results flagged for a closer look

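For 12 genes of the pathway, of the 58 tested, both siRNA libraries of C4-2B MDVR lay on one side of their control and both of H660 on the other. Of these, 9 were above the control in C4-2B MDVR and below it in H660, as were 11.9% of all genes, and 3 were the reverse, as were 7.85% of all genes. The difference of the knockdown effect (H660 minus C4-2B MDVR, log2) was tested with limma in each case and passed the threshold in none, with an adjusted p of 0.985 to 0.988. Among the receptors it was −0.80 for NOTCH1 and −0.31 for NOTCH3, below the control in H660 and above it in C4-2B MDVR. The same direction was seen for the ubiquitin ligase NEURL1 (−0.65), the co-repressor TLE4 (−0.26), NUMBL (−0.41), HES2 (−0.40) and the Deltex genes DTX1 (−0.40), DTX2 (−0.81) and DTX4 (−0.38). DTX2 was at 4.24, 5.97 and 6.997 FPKM in the control, siRNA 1 and siRNA 2 libraries of C4-2B MDVR and at 4.23, 3.50 and 3.03 FPKM in those of H660 (unadjusted p = 0.0284, limma adjusted p = 0.985). The opposite direction was seen for POGLUT1 (0.23), RBPJ (0.15) and APH1A (0.12). Some of these directions rest on few fragments or small steps. In C4-2B MDVR TLE4 gave 4, 20 and 9 fragments and DTX1 gave 23, 30 and 39. RBPJ there was at 7.672 FPKM with siRNA 2 against 7.683 FPKM in the control. APH1A in H660 was at 67.20 FPKM with siRNA 1 against 67.11 FPKM in the control. DTX2, DTX4 and APH1A lie outside the rule for named genes and are named because their libraries showed this pattern.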

How the results depend on the processing

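The difference between the lines kept its direction for all 9 Notch genes tested in 14 alternatives; the calls of JAG1, NOTCH1 and HES1 that were lost are given above, and those of DLL1, DLL3, NOTCH3 and HEY1 held in each. Leaving out 1 library in turn left 5 to 7 of the Notch genes, 14 to 18 of the other pathway genes and 5851 to 6028 of all genes called. Calls of knockdown over all genes were 0 except as follows. Without a filter on low values 851 genes were called in C4-2B MDVR, 876 in H660 and 1372 in the difference between the lines, of which 832, 861 and 1352 were below the filter; 1 was another pathway gene in H660, and 1 in the difference. With rescaled libraries 2 genes were called in C4-2B MDVR. In H660 1 gene was called with a pseudocount of 0.1, and 1 under quantile normalization. No Notch gene was called for knockdown in any alternative.

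Effects near 0 changed sign. For NOTCH2 in C4-2B MDVR the effect was −0.025 with rescaled libraries and −0.055 with total scaling. For NOTCH3 over both lines it was −0.0100 with a pseudocount of 0.1, −0.054 with rescaled libraries, −0.054 under quantile normalization, −0.015 with voom and −0.069 with total scaling. For HEY1 over both lines it was −0.017 with a pseudocount of 0.1, −0.012 with rescaled libraries and −0.017 with total scaling, and in C4-2B MDVR it was 0.014 under quantile normalization. The siRNA 2 ratio of NOTCH3 in C4-2B MDVR was 0.975 with total scaling, and the line difference of HES4 was 0.091 with rescaled libraries and 0.19 under quantile normalization. The cause was not tested.

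With 1 library left out, effects over both lines ran from −0.19 to 0.66 for JAG1, −0.29 to 0.061 for JAG2, −0.20 to 0.60 for NOTCH1, −0.22 to 0.060 for NOTCH2, −0.16 to 0.16 for NOTCH3 and −0.063 to 0.070 for HEY1. In C4-2B MDVR they ran from −0.77 to 1.21 for JAG1, −0.58 to 0.24 for JAG2, −0.12 to 0.24 for NOTCH2 and −0.11 to 0.058 for HEY1. In H660 they ran from −0.15 to 0.083 for DLL3 and −0.11 to 0.20 for HEY1. The difference between the lines in effect ran from −0.96 to 1.02 for JAG1, −0.31 to 0.51 for JAG2, −0.079 to 0.23 for HES1 and −0.089 to 0.22 for HEY1. The effect in a line could not be had without its only control. The effect over both lines then came from the other line alone, as at −0.20 (H660) and 0.60 (C4-2B MDVR) for NOTCH1.

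The siRNA numbers did not pair the libraries: the difference between siRNA 1 and siRNA 2 correlated between the lines with r = −0.0043 across 15638 genes, which are not independent replicates. With that number entered as a replicate block, 1 gene was called for knockdown in H660, and 3162 genes were called higher and 2831 lower in H660 than in C4-2B MDVR; the block changed no call of a Notch gene. Depth limits DLL4 and HEY1 in C4-2B MDVR, at 0 to 33 fragments.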
